A study of Mus musculus with 12 samples.

Results

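The genes described here are Notch receptors, their shared nuclear factor and known Notch targets of T cells, in a mouse model of T cell lymphoma driven by the fusion kinase ZMYM2-FGFR1. Members were taken by name: Notch1, Notch3, Rbpj, Lfng, Dtx1, Nrarp, Hes1, Hey1, Ptcra and Igf1r. These 10 genes, of 18193 named on the array, have 21 of the 34945 probe sets that carry 1 gene symbol. A probe set is a group of short probes designed to 1 transcript or several. Each probe set is described, because several genes have probe sets that differ. In the RefSeq gene table Notch1 and Nrarp lie on chromosome 2, Hey1 on 3, Lfng, Dtx1 and Rbpj on 5, Igf1r on 7, Hes1 on 16, and Notch3 and Ptcra on 17.

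The arrays held 5 groups. T lymphomas (n = 4) came from mice given the ZMYM2-FGFR1 disease by serial transplantation, at the third passage. Lymphomas 1 to 3 were hybridised unsorted, with over 90% of cells GFP+Thy1+DP+ per the labels, and lymphoma 4 was sorted for GFP+Thy1+DP+ cells. DP thymocytes (n = 3) were Thy1+ CD4+CD8+ double-positive cells sorted from the thymus of normal Balb/c animals, with 3 mice pooled for each array. ZNF112 (n = 1) is labelled only as a cell line, unsorted, with nothing on its origin in the labels. Leukaemia stem cells (LSC, n = 2) were sorted as GFP+Lin-Sca-1+c-kit+ from marrow or spleen, with 2 to 3 leukaemic mice pooled. Haematopoietic stem cells (HSC, n = 2) were sorted as Lin-Sca-1+c-kit+ from marrow, with 5 normal female Balb/c mice pooled for each array. Lymphomas, LSC and ZNF112 carry no strain label. The labels call the arrays of a group biological replicates and do not say whether the lymphomas arose from separate primary diseases; if not, p-values measure the spread between these arrays only.

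Notch receptors are surface proteins that are cut when they bind a Delta or Jagged ligand on a neighbouring cell. The freed intracellular part enters the nucleus and joins RBPJ on DNA, where it turns on target genes. In the thymus, signalling through Notch1 commits progenitors to the T lineage and carries them through the pre-T cell receptor checkpoint, after which DP cells receive little of it. Activation of Notch1 is a frequent event in T cell leukaemia of mice and people.

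Values are log2 of the deposited intensity, and 1 unit is a doubling. A probe set was tested where 2 or more arrays exceeded log2 6.33 (intensity 80.4), which is the overall median of the table. That held for 19 of the 21 probe sets and for all 10 genes. The others, Lfng 1449943_at and Igf1r 1452108_at, lay below that level in every group except ZNF112 for the second, and were not tested. Lfng 1449943_at had 5.32 to 5.52 in lymphomas, 5.43 in ZNF112 and 5.12 to 5.36 in DP thymocytes, and 3.94 and 4.69 in LSC, against 4.09 and 3.96 in HSC. Igf1r 1452108_at had 5.34 to 5.69 in lymphomas, 6.42 in ZNF112 and 5.64 to 5.81 in DP thymocytes, and 4.56 and 4.55 in LSC, against 4.49 and 4.5 in HSC. Tests are from 1 limma fit to the 12 arrays, with Benjamini-Hochberg adjustment over 23053 probe sets, and a call is an adjusted p under 0.05. A single array, as for ZNF112, was given the spread of the rest. The 8 arrays of lymphomas, ZNF112 and thymocytes had median intensities of 99.5 to 109, and the 4 stem cell arrays 44.3 to 46.1. Levels are therefore not set against each other across these sides except by rank within an array. The filter level lies above the medians of the stem cell arrays (log2 5.47 to 5.53), so a stem cell value under it need not be a low one.

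The arrays differed in quality and purity. The 3' over 5' ratio of the beta-actin control probes, which is larger in shortened cRNA, was 2.44 to 3.69 in lymphomas, 2.6 in ZNF112 and 2.18 to 2.23 in DP thymocytes. In LSC it was 13.58 and 9.82, against 5.79 and 3.91 in HSC. Across tested probe sets, which are not independent of each other, Pearson's r of LSC 2 was 0.859 to 0.886 with lymphomas, 0.798 and 0.805 with HSC and 0.789 with LSC 1. The summed intensity of 15 stroma and endothelium markers was 19086 to 37504 in the unsorted lymphomas and 1389 in the sorted one, against 1362 to 1506 in DP thymocytes. That of 11 macrophage markers was 29695 to 66681 in the unsorted lymphomas and 3564 in the sorted one, against 1331 to 1503 in DP thymocytes. Lymphoma 3 stood apart in B cell markers. The median log2 value of 8 measured ones was 9.83 in it, against 6.49 to 7.19 in the other lymphomas. In DP thymocytes this median was 6.73 to 6.92. In bulk RNA, more cells of a kind and more RNA per cell cannot be told apart. Of 11 DP thymocyte markers, 10 had a named probe set, and all 10 lay above the filter level in lymphomas and DP thymocytes. Their summed intensity was lower in the lymphomas, at 63723 to 95084, against 139258 to 155341 in DP thymocytes.

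Promoters were read for the 8 members that the RefSeq table holds (build GRCm38.p6; Hes1 and Hey1 were not matched). The 250 bases before each start were searched for the RBPJ core TGGGAA on both strands, which reads TTCCCA on the other strand. Windows of 3 members held it, each with 2 matches, and they are printed to show where the letters of the factor's site stand in these genes. Each is written 5′ to 3′ on the strand of the gene, with RBPJ cores in capitals. Ptcra lies at chr17:46763713-46763962 on the minus strand, Lfng at chr5:140607091-140607340 on the plus strand and Rbpj at chr5:53590096-53590345 on the plus strand.

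Ptcra: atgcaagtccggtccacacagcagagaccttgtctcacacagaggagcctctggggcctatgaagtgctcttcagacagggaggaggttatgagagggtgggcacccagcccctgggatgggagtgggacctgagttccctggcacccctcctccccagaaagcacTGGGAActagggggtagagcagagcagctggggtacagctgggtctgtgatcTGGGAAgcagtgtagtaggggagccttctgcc
Lfng: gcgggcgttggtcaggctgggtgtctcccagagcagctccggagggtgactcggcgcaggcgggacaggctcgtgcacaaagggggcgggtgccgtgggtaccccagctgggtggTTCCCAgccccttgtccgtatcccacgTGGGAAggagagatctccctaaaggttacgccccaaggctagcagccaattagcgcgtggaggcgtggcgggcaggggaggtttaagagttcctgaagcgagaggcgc
Rbpj: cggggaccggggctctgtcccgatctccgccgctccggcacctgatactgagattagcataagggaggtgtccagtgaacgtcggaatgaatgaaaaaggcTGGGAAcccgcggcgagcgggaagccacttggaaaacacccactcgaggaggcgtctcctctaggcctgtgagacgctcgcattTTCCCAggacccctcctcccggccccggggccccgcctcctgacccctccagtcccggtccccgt

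The core letters stand 84 to 79 and 32 to 27 bases before the start in Ptcra. In Lfng they stand 135 to 130 (other strand) and 108 to 103 bases before it, and in Rbpj 149 to 144 and 65 to 60 (other strand). No match lay in the windows of Notch1, Notch3, Dtx1, Nrarp or Igf1r. Of 27025 genes in the table, 24.1% had the core in a window of this length (21.6% of 32851 windows), and Rbpj has 2 windows, so that matches in 3 of 8 members are a description and mark no binding site. The E-box CACGTG, found in 6.02% of windows, was present in those of Lfng, where it overlaps an RBPJ core, and Nrarp.

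T lymphomas were set against DP thymocytes to see how the tumour cells differ from normal cells with the same surface markers. Both receptors and the pre-T receptor gene Ptcra were higher in the lymphomas, by 3.13-fold to 6.47-fold, and 1 probe set of Igf1r was lower. The probe sets of the Deltex gene Dtx1 disagreed. Its 1425822_a_at was higher by 30.2-fold, and its 1458643_at did not pass (-0.21, limma adjusted p = 0.727). Of 19 tested probe sets, 6 were higher (4 genes) and 1 was lower (1 gene), against a background of 2.69% of all tested probe sets higher and 3.53% lower. The median difference was 0.76 over the 19, against -0.06 over all probe sets tested. Groups did not overlap for 8 of the 19 above (background 13.6%) and for 3 below (background 20.7%).

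**Figure D1:**
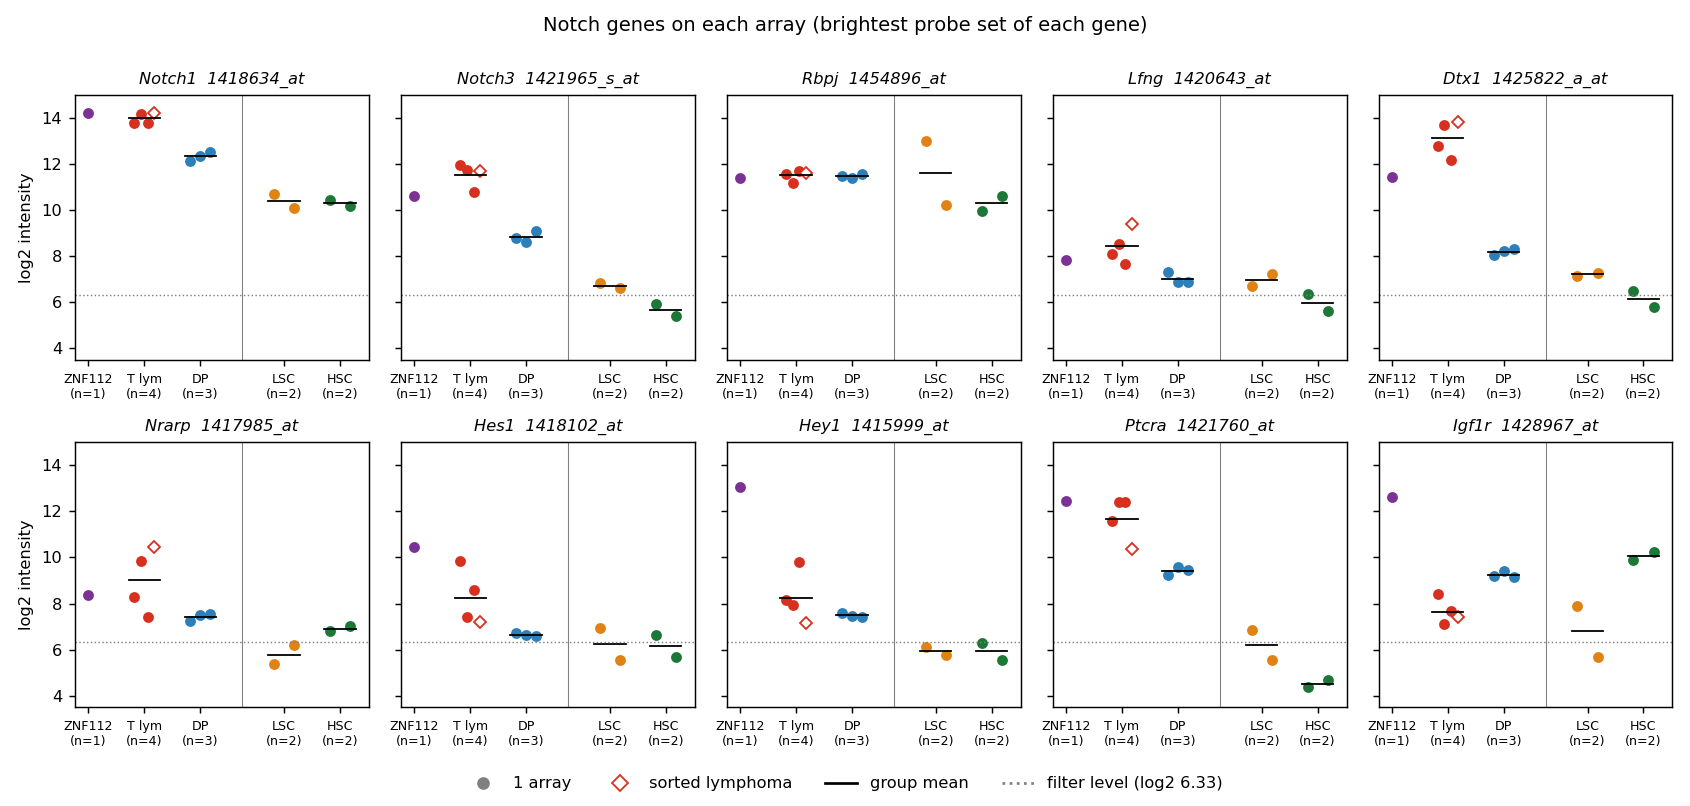
Log2 intensity (vertical axis) of the brightest probe set of each gene on each of the 12 arrays; points are arrays, bars group means, the open diamond the sorted lymphoma, and the dotted line the filter level of 6.33. The lymphomas stand above DP thymocytes for Notch1, Notch3, Dtx1, Lfng, Hes1 and Ptcra. ZNF112 stands highest for Hey1, Igf1r and Hes1, and by little for Ptcra. The vertical line parts arrays that are not on 1 scale.

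Notch1, the receptor required for T lineage commitment, has 2 probe sets. On 1418634_at the lymphomas had log2 values of 13.75, 14.16, 13.79 and 14.2, against 12.11, 12.35 and 12.53 in DP thymocytes. On 1418633_at they had 11.25, 11.5, 11.12 and 11.5, against 9.02, 9.22 and 9.21 in DP thymocytes. The groups did not overlap on either, and every lymphoma stood more than 1 log2 unit above every thymocyte array. The differences were 1.65 ± 0.22 (SE; 3.13-fold, limma adjusted p = 0.00222) and 2.19 ± 0.22 (4.57-fold, limma adjusted p = 0.000501). By rank within the array, 1418634_at stood at the 99.5th percentile in lymphomas, the 99.6th in ZNF112 and the 96.6th in DP thymocytes, and at the 93rd in LSC and 93.4th in HSC (medians of each group). Set against the sorted lymphoma alone, 1418634_at kept its size (1.87) and had a limma adjusted p of 0.0559.

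Notch3, a second receptor expressed in immature thymocytes, was higher on both of its probe sets. Values of 1421965_s_at, whose probes may match more than 1 transcript, were 11.94, 11.72, 10.76 and 11.7 in lymphomas, against 8.78, 8.63 and 9.1 in DP thymocytes. Those of 1421964_at were 9.54, 9.22, 8.5 and 9.37 in lymphomas, against 7.19, 7.22 and 7.76 in DP thymocytes. Lymphoma 3 was the lowest tumour on both, and still above all 3 thymocyte arrays. The differences were 2.69 ± 0.29 (6.47-fold, limma adjusted p = 0.000776) and 1.77 ± 0.29 (3.41-fold, limma adjusted p = 0.00667). The second lost its call against the sorted lymphoma alone (1.98, limma adjusted p = 0.0658).

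Rbpj, the DNA-binding factor through which all Notch receptors act, showed no called difference on any of its 3 probe sets. On 1454896_at lymphomas had 11.58, 11.19, 11.69 and 11.59, against 11.46, 11.37 and 11.54 in DP thymocytes, so that the groups overlapped. The difference was 0.05 with a 95% interval of -1.13 to 1.24 (limma adjusted p = 0.969). The others gave -0.47 (1448957_at, interval -1.05 to 0.12) and -0.11 (1418114_at, interval -1.23 to 1.01). These intervals leave room for changes of about 1 log2 unit.

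Lfng encodes Lunatic Fringe, a sugar transferase that modifies Notch receptors and alters their response to ligands. Its tested probe set 1420643_at had 8.11, 8.51, 7.65 and 9.41 in lymphomas, against 7.3, 6.89 and 6.88 in DP thymocytes. The groups did not overlap, but the difference of 1.40 ± 0.39 missed the threshold (limma adjusted p = 0.0699). It passed without lymphoma 3 (1.65, limma adjusted p = 0.0386) and with the sorted lymphoma alone (2.39, limma adjusted p = 0.0439).

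Dtx1 encodes Deltex, a ubiquitin ligase that binds the receptor and is itself a Notch target in T cells. Its probe sets disagreed. On 1425822_a_at, designed to several transcripts of the gene, lymphomas had 12.78, 13.66, 12.19 and 13.8, against 8.03, 8.2 and 8.33 in DP thymocytes. This was the largest difference of the 19 tested, at 4.92 ± 0.38 (30.2-fold, limma adjusted p = 0.000109), and the gap between the groups was over 3 log2 units. On 1458643_at lymphomas had 6.58, 7.38, 7.45 and 7.58, against 7.18, 7.42 and 7.78 in DP thymocytes. Here the groups overlapped, with a difference of -0.21 and an interval of -0.86 to 0.44 (limma adjusted p = 0.727). Probe positions were not used here, so which transcripts each probe set reads was not tested.

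Nrarp encodes a small ankyrin-repeat protein that Notch induces and that dampens Notch signalling. On 1417985_at lymphomas had 8.29, 9.86, 7.42 and 10.47, against 7.25, 7.51 and 7.54 in DP thymocytes. Lymphomas 2 and 4 were high on this probe set and lymphoma 3 lay within the thymocyte range. On 1417986_at lymphomas had 7.96, 9.05, 7.74 and 8.96, against 7.87 to 7.97 in DP thymocytes, so that lymphomas 2 and 4 were again high, lymphoma 1 lay within the thymocyte range and lymphoma 3 below it. Neither difference was called (1.58 ± 0.64, limma adjusted p = 0.18, and 0.52, limma adjusted p = 0.375). For the sorted lymphoma alone 1417985_at passed (3.04, limma adjusted p = 0.0147).

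Hes1 and Hey1 encode repressors of the Hairy and Enhancer of split family, which Notch induces in many cell types. Hes1 1418102_at had 9.84, 7.41, 8.59 and 7.18 in lymphomas, against 6.73, 6.64 and 6.58 in DP thymocytes. All 4 lymphomas stood above the thymocytes, spread over more than 2 log2 units, and the difference of 1.61 ± 0.62 did not pass (limma adjusted p = 0.162). Hey1 1415999_at had 8.14, 7.94, 9.81 and 7.15 in lymphomas, against 7.6, 7.47 and 7.42 in DP thymocytes, and the groups overlapped (0.76 ± 0.52, limma adjusted p = 0.422). The sorted lymphoma had the lowest value of both genes among the tumours, and also the lowest summed stroma and macrophage markers; the part of other cells in these values was not tested.

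Ptcra encodes the invariant chain of the pre-T cell receptor, which Notch signalling turns on before the DP stage. Its probe set 1421760_at had 11.56, 12.41, 12.41 and 10.36 in lymphomas, against 9.23, 9.59 and 9.44 in DP thymocytes. All lymphomas lay above the thymocytes, with the sorted tumour the lowest. The difference was 2.27 ± 0.50 (4.81-fold, limma adjusted p = 0.0288). The call was lost on leaving out any 1 array other than lymphoma 4, with adjusted p between 0.0652 and 0.127 and differences of 2.03 to 2.35, and it was lost with the sorted lymphoma alone (0.95, limma adjusted p = 0.7).

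Igf1r encodes the insulin-like growth factor 1 receptor, reported as a Notch1 target in T cell leukaemia. The means of its 4 tested probe sets were all below those of DP thymocytes, and 1 was called. On 1446303_at lymphomas had 5.78, 5.25, 5.7 and 5.59, against 6.89, 6.59 and 6.48 in DP thymocytes, a difference of -1.07 ± 0.19 (2.1-fold lower, limma adjusted p = 0.00893). All 4 tumours were under the filter level on it, so the size of the fall rests on low values; with values under that level raised to it the difference was -0.32 (limma adjusted p = 0.108), and without DP thymocyte array 1 it was -0.95 (limma adjusted p = 0.06). On the brighter 1428967_at lymphomas had 8.41, 7.1, 7.67 and 7.43, against 9.18, 9.43 and 9.15 in DP thymocytes, and on 1452982_at 8.11, 7.04, 7.42 and 6.74, against 8.76, 8.79 and 8.46. Groups did not overlap on either, and both missed the threshold in the fit to 12 arrays (-1.60, limma adjusted p = 0.0864, and -1.34, limma adjusted p = 0.374). Both passed in a fit to the 8 arrays of this side (limma adjusted p = 0.0155 and 0.0336). That fit called 14.5% of all tested probe sets, against 6.22% in the fit to 12 arrays. On 1426565_at both groups were under the filter level (4.8 to 5.32 in lymphomas, against 5.13 to 5.45 in DP thymocytes).

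**Figure D2:**
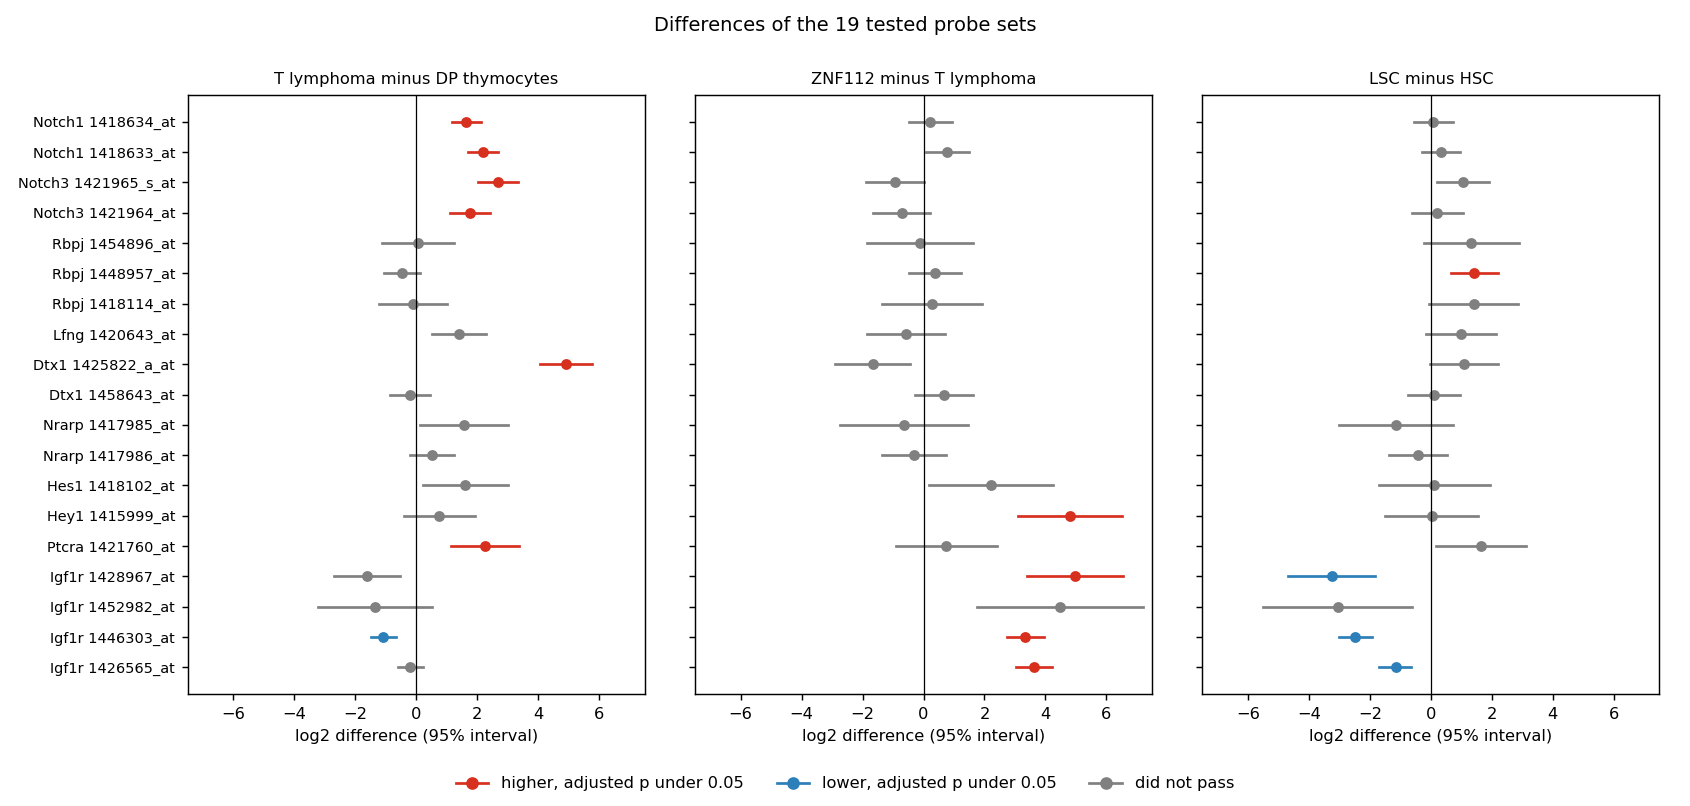
Log2 difference of each of the 19 tested probe sets with its 95% interval, for T lymphoma minus DP thymocytes, ZNF112 minus T lymphoma and LSC minus HSC; red is higher and blue lower at a limma adjusted p under 0.05, and grey did not pass. Dtx1 1425822_a_at stands at 4.92 in the first panel, Igf1r and Hey1 at 3.34 to 4.98 in the second, and Igf1r at -1.16 to -3.26 in the third.

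The individual tumours did not order alike over the targets. Taken against the mean of the DP thymocytes, lymphomas 2 and 4 were highest for Dtx1 1425822_a_at (5.48 and 5.61) and Nrarp 1417985_at (2.42 and 3.04). Lymphomas 1 and 3 were highest for Hes1 (3.19 and 1.94) and also led for Hey1 (0.64 and 2.31). For Ptcra lymphomas 2 and 3 stood at 2.99 each, lymphoma 1 at 2.14 and lymphoma 4 at 0.95. Notch1 1418634_at varied less, from 1.42 in lymphoma 1 to 1.87 in lymphoma 4.

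**Figure D3:**
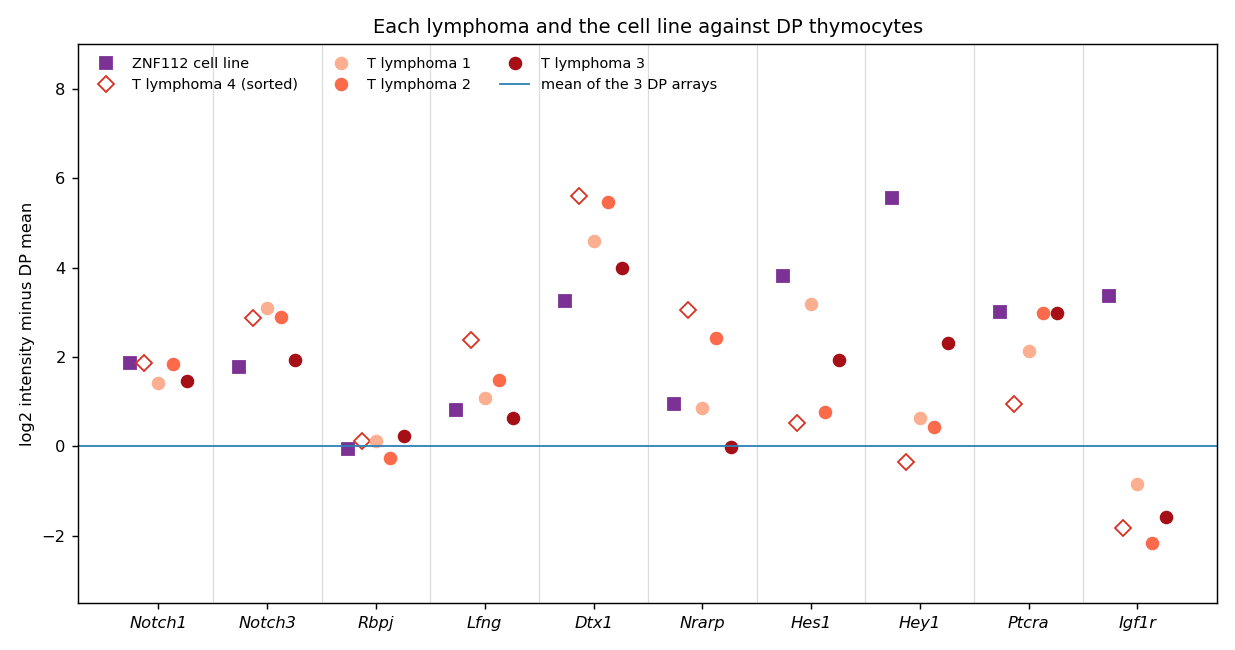
Log2 intensity minus the mean of the 3 DP thymocyte arrays (vertical axis) for the brightest probe set of each gene, with 1 point for ZNF112 and for each lymphoma; the line at 0 is the DP mean. Dtx1 is at 4.0 to 5.61 in the lymphomas and 3.25 in ZNF112, while Igf1r is below 0 in all lymphomas and at 3.37 in ZNF112.

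The sorted lymphoma was set against the 3 unsorted ones, the study's own check on whether sorting influences expression. No member probe set was called, against 0.486% of all tested probe sets in either direction (limma); 3 of the 19 had an unadjusted p under 0.05, and 2 did in a fit to the 4 lymphoma arrays. These 3 were Lfng (1.32 ± 0.43), Nrarp 1417985_at (1.95 ± 0.77) and Ptcra (-1.76 ± 0.52), with limma adjusted p of 0.324, 0.44 and 0.275. The 0.486% is a share of adjusted calls. No share of all probe sets at the unadjusted p was counted, so the 3 and the 2 have no background beside them. The median difference was 0.21 over the 19, against 0.1 over all probe sets. Without lymphoma 2 the Nrarp probe set passed (2.62, limma adjusted p = 0.0419). With 1 sorted array, sorting and the tumour itself cannot be told apart.

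ZNF112 was set beside the lymphomas. Hey1 and Igf1r were higher in the line than in the tumours, on 1 and 3 probe sets, while the receptors, Dtx1, Ptcra and the rest gave no call. With 1 array the line's own variation was not measured, and each p rests on the spread within the other groups. Of 19 tested probe sets, 4 were higher (2 genes) and 0 lower, against a background of 0.386% higher and 0.386% lower, and the median difference was 0.36 against 0.05 over all probe sets. Of the 10 measured DP thymocyte markers, Cd4 (6.88), Cd8a (8.51), Cd8b1 (6.19) and Rag2 (7.97) lay below all lymphomas in ZNF112, against 9.61 to 11.01 for Cd4 and 12.14 to 13.58 for Cd8a in the tumours, and Cd8b1 was under the filter level. The others were near the tumours: Thy1 was at 13.41, Rag1 at 13.64, Dntt at 14.15, Cd3e at 10.67, Cd3d at 13.42 and Cd3g at 13.72 in ZNF112, against 13 to 13.3, 13.69 to 13.99, 13.81 to 14.41, 10.2 to 10.97, 12.59 to 13.48 and 12.64 to 13.65 in lymphomas.

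Igf1r was called on 3 probe sets in the line. Its 1428967_at had 12.63 in ZNF112, against 8.41, 7.1, 7.67 and 7.43 in lymphomas, a difference of 4.98 ± 0.71 (31.5-fold, limma adjusted p = 0.0183). For 1446303_at ZNF112 had 8.92, against 5.25 to 5.78 in lymphomas (3.34 ± 0.27, 10.1-fold, limma adjusted p = 0.00192), and for 1426565_at 8.75, against 4.8 to 5.32 (3.64 ± 0.26, 12.5-fold, limma adjusted p = 0.0011). On both of these probe sets all 4 lymphomas lay under the filter level, so the folds rest on low values. The second exceeded that level only in ZNF112 and both HSC arrays, so it was tested through the groups where it is high, and its call adds no support. The fourth, 1452982_at, had 11.81 in ZNF112, against 6.74 to 8.11 in lymphomas, a difference of 4.48 that did not pass (limma adjusted p = 0.167). ZNF112 also stood above every DP thymocyte array on these 4, by 2.26 to 3.44 over the DP mean, as a description with no test. Against the sorted lymphoma alone 1428967_at did not pass (5.20, limma adjusted p = 0.0802).

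Hey1 was at 13.06 in ZNF112, against 8.14, 7.94, 9.81 and 7.15 in lymphomas and 7.42 to 7.6 in DP thymocytes. The difference from the lymphomas was 4.80 ± 0.76 (27.8-fold, limma adjusted p = 0.0273), and it missed the threshold without lymphoma 1 (limma adjusted p = 0.0509) or lymphoma 2 (limma adjusted p = 0.0694). Hes1 stood at 10.47 in ZNF112, above all lymphomas (7.18 to 9.84), with a difference of 2.21 ± 0.91 that did not pass (limma adjusted p = 0.392). The summed stroma and endothelium markers of ZNF112 were 1540 and its macrophage markers 2088, against up to 37504 and 66681 in the lymphomas.

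**Figure D4:**
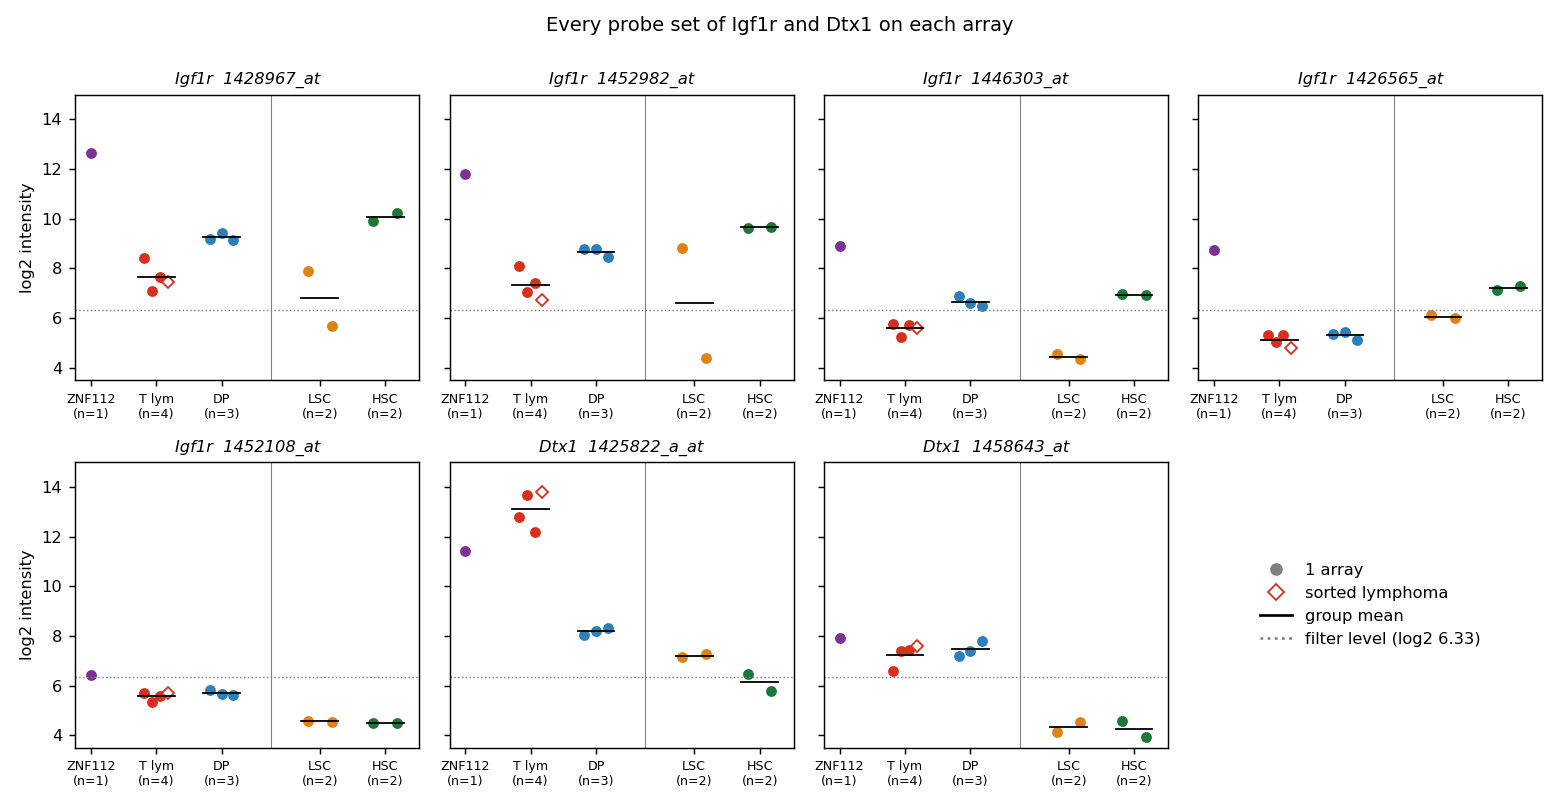
Log2 intensity (vertical axis) of the 5 probe sets of Igf1r and the 2 of Dtx1 on each array; points are arrays, bars group means, the open diamond the sorted lymphoma, and the dotted line the filter level of 6.33. ZNF112 is highest on all 5 Igf1r probe sets (6.42 to 12.63), and of the Dtx1 pair only 1425822_a_at parts lymphomas (12.19 to 13.8) from DP thymocytes (8.03 to 8.33).

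The other members were closer. Notch1 had 14.19 and 12.12 in ZNF112 on its 2 probe sets, with differences from the lymphomas of 0.22 (interval -0.49 to 0.93) and 0.78 (interval 0.07 to 1.49; limma adjusted p = 0.388). Notch3 1421965_s_at had 10.6 in ZNF112, below all lymphomas (-0.93 ± 0.43, limma adjusted p = 0.453), and 1421964_at had 8.44, also below them (-0.72, limma adjusted p = 0.586). Dtx1 1425822_a_at had 11.43, below all of them (-1.67 ± 0.55, limma adjusted p = 0.266), and still 3.25 above the DP mean. On Dtx1 1458643_at the line stood on the other side, at 7.92 in ZNF112, against 6.58 to 7.58 in lymphomas (0.67, limma adjusted p = 0.623). Ptcra was at 12.44, just above the highest lymphoma (0.75, limma adjusted p = 0.795). Lfng 1420643_at had 7.84 (-0.58, limma adjusted p = 0.799), and Nrarp had 8.38 on 1417985_at and 8.11 on 1417986_at (-0.63 and -0.32, limma adjusted p = 0.892 and 0.893). Rbpj had 11.39 on 1454896_at, 9.79 on 1448957_at and 8.69 on 1418114_at, with differences of -0.12, 0.37 and 0.29 (limma adjusted p of 0.983, 0.817 and 0.951).

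LSC were set against HSC, the normal cells of the same surface phenotype. Of Igf1r 3 probe sets were lower and of Rbpj 1 was higher in LSC, and the receptors and the other targets did not pass. In a fit to the 4 stem cell arrays alone none of these passed, with limma adjusted p of 0.414 for Rbpj and 0.215 to 0.373 for Igf1r. Of 19 tested probe sets, 1 was higher (1 gene) and 3 were lower (1 gene), against a background of 3.95% higher and 5.24% lower. The median difference was 0.1, against -0.01 over all probe sets. Groups of 2 did not overlap for 5 probe sets above (background 21.0%) and for 6 below (background 21.0%), both counts of 19.

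The 2 LSC arrays were unlike each other in markers. Summed intensity of 8 measured stem and progenitor markers was 13432 in LSC 1 and 2540 in LSC 2, against 9924 and 13551 in HSC. That of the DP thymocyte markers was 7740 and 28601 in LSC, against 3789 and 5187 in HSC. The HSC arrays were unlike each other too. Summed macrophage markers were 36531 in HSC 1 and 6887 in HSC 2, against 31492 in LSC 1 and 4067 in LSC 2. Of 8 measured B cell markers, 6 lay above the filter level in HSC 1 and 3 in HSC 2. In LSC 1 and LSC 2 these counts were 4 and 1. Hlf and Mecom, defining factors of stem cells, were at 5.37 and 5.92 in LSC 1 and at 4.77 and 4.08 in LSC 2, against 10.66 and 9.8 in HSC 1 and 11.1 and 10.38 in HSC 2. Other stem cell markers parted the LSC arrays: Gata2 was at 12.39 in LSC 1 and 6.94 in LSC 2, against 10.12 and 9.8 in HSC, and Cd34 at 10.63 and 5.1, against 10.48 and 11.5 in HSC. Procr was at 9.3 and 7.73 in LSC, against 9.58 and 9.39 in HSC. Kit, the c-kit gene used in the sort, was at 12.31 and 10.99 in LSC, against 11 and 11.43 in HSC. How far this and the actin ratios bear on the values below was not tested.

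Igf1r 1428967_at had 7.91 and 5.7 in LSC, against 9.9 and 10.23 in HSC, a difference of -3.26 ± 0.63 (9.58-fold lower, limma adjusted p = 0.0141). On 1446303_at LSC had 4.56 and 4.33, against 6.96 and 6.91 in HSC (-2.49 ± 0.24, limma adjusted p = 0.000648). Both LSC values are under the filter level, at percentiles 30.1 and 24.1 of their arrays. With values raised to that level the difference was -0.61 (limma adjusted p = 0.0414). As the level lies above the medians of the stem cell arrays, raising values to it shrinks differences on this side. On 1426565_at LSC had 6.1 and 6.01, against 7.14 and 7.3 in HSC (-1.16 ± 0.23, limma adjusted p = 0.0168). LSC were under the filter level here too, though at percentiles 59.9 and 57.9 of their arrays. This probe set was tested only through HSC and ZNF112, so that its call adds no support. Both LSC arrays lay below both HSC arrays on all 4 tested probe sets, though 1452982_at was 8.8 in LSC 1 and 4.4 in LSC 2, against 9.63 and 9.69 in HSC, and did not pass (-3.06 ± 1.09, limma adjusted p = 0.116). Without HSC 2, calls were lost for 1428967_at (limma adjusted p = 0.0727) and 1426565_at (limma adjusted p = 0.0723). Without LSC 1, 1452982_at passed (-5.26, limma adjusted p = 0.000426).

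Rbpj 1448957_at had 10.12 and 9.14 in LSC, against 8.11 and 8.29 in HSC (1.43 ± 0.34, 2.69-fold, limma adjusted p = 0.0323). The other probe sets rested on 1 array: 1454896_at had 13.01 and 10.23 in LSC, against 9.97 and 10.62 in HSC, and 1418114_at 9.72 and 7.05, against 6.78 and 7.18. LSC 2 thus lay within the HSC range on both, and neither was called (1.32, limma adjusted p = 0.278, and 1.40, limma adjusted p = 0.222). Without LSC 1 the call of 1448957_at was lost (0.94, limma adjusted p = 0.0721), as it was without either HSC array (limma adjusted p = 0.111 and 0.0884); without LSC 2 the other 2 passed (2.71 and 2.74).

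Notch1 gave no call between the stem cell groups. Its 1418634_at had 10.67 and 10.08 in LSC, against 10.44 and 10.15 in HSC, and its 1418633_at had 7.65 and 7.5, against 7.65 and 6.83. The differences were 0.08 (interval -0.55 to 0.71) and 0.34 (interval -0.30 to 0.97), so that both intervals end below the differences of 1.65 and 2.19 between lymphomas and DP thymocytes, while smaller changes lie within them. Notch3 1421965_s_at had 6.83 and 6.6 in LSC, against 5.93 and 5.42 in HSC (1.05 ± 0.38, limma adjusted p = 0.124), and 1421964_at had 4.75 and 5.3, against 5.01 and 4.61 (0.21, limma adjusted p = 0.779). Dtx1 1425822_a_at had 7.14 and 7.28 in LSC, against 6.48 and 5.78 in HSC (1.08 ± 0.50, limma adjusted p = 0.215). On Dtx1 1458643_at all 4 arrays were under the filter level, with 4.15 and 4.55 in LSC, against 4.57 and 3.92 in HSC (0.10, limma adjusted p = 0.901). Ptcra had 6.85 and 5.53 in LSC, against 4.38 and 4.69 in HSC (1.66 ± 0.66, limma adjusted p = 0.154), and Lfng 1420643_at 6.72 and 7.24, against 6.36 and 5.62 (1.00, limma adjusted p = 0.27). Notch3 1421965_s_at, Dtx1 1425822_a_at, Ptcra and Lfng 1420643_at ran above HSC in both LSC arrays and none passed. All HSC values of Notch3 1421965_s_at and Ptcra were under the filter level. They stood at percentiles 55.7 and 49 of their arrays for Notch3, and 27.2 and 35.9 for Ptcra. Nrarp 1417985_at ran the other way, with 5.37 and 6.18 in LSC, against 6.8 and 7.03 in HSC (-1.14 ± 0.84, limma adjusted p = 0.449), and 1417986_at had 6.18 and 6.03, against 6.66 and 6.39 (-0.42, limma adjusted p = 0.585). Hes1 had 6.95 and 5.56 in LSC, against 6.63 and 5.67 in HSC, and Hey1 6.12 and 5.79, against 6.28 and 5.57, so that the groups overlapped (differences of 0.10 and 0.03).

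The difference of the contrasts, LSC over HSC minus T lymphoma over DP thymocytes, tests whether the disease moved a gene alike in stem and T cells. Of the 19 probe sets, 1 was higher and 4 were lower (background 3.57% higher and 4.21% lower). The count of 1 higher is near its background. The median was -1.42, against 0.05 over all probe sets. Both Notch1 probe sets (-1.57 and -1.85, limma adjusted p = 0.0311 and 0.0167), Dtx1 1425822_a_at (-3.84 ± 0.62, limma adjusted p = 0.00841) and Igf1r 1446303_at (-1.42, limma adjusted p = 0.0262) were lower, and Rbpj 1448957_at was higher (1.90, limma adjusted p = 0.0311). On both Notch1 probe sets and Dtx1 1425822_a_at the difference was thus larger in the T cell comparison than in the stem cell one. Dtx1 1458643_at did not pass (0.31, limma adjusted p = 0.729). The Dtx1 call held without any 1 array, and that of Notch1 1418633_at was lost without DP thymocyte array 1 (limma adjusted p = 0.058). The call of Notch1 1418634_at was lost without either HSC array, lymphoma 2 or any DP array (limma adjusted p of 0.0516 to 0.0904). That of Rbpj was lost without either HSC array, lymphoma 1, lymphoma 2 or any DP array, and that of Igf1r without either HSC array or DP arrays 2 or 3. With values under the filter level raised to it, the Igf1r difference was -0.29 (limma adjusted p = 0.394). That level lies above the medians of the stem cell arrays, so raising values shrinks the stem cell difference. Notch3 1421965_s_at did not pass (-1.65 ± 0.48, limma adjusted p = 0.0679).

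Ranks within the array let the groups of both sides be set in 1 order, as a description and with the median of each group. Dtx1 1425822_a_at stood at the 98.5th percentile of its array in lymphomas, the 92.8th in ZNF112, the 71.2nd in LSC, the 65.6th in DP thymocytes and the 58.4th in HSC. Notch3 1421965_s_at stood at 94.5 in lymphomas, 87.6 in ZNF112, 71.4 in DP thymocytes, 66.4 in LSC and 52.3 in HSC. Ptcra was at 96.9 in ZNF112, 95.3 in lymphomas, 77.1 in DP thymocytes, 59.4 in LSC and 31.5 in HSC. For these 3 genes the lymphomas and ZNF112 ranked above both normal groups. Igf1r 1428967_at ran in another order, at 97.4 in ZNF112, 65.6 in LSC and 60.0 in lymphomas, against 92.5 in HSC and 75.1 in DP thymocytes.

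A further 89 genes of the pathway were read by role, of which 83 were named and 74 tested, with 162 probe sets. Between T lymphoma and DP thymocytes 17 of these probe sets were higher (8 genes) and 13 lower (11 genes), against a background of 2.69% higher and 3.53% lower, with a median of -0.13, against -0.06 over all probe sets. No receptor or ligand was among them: Notch2, the only other receptor that passed the filter, and 3 of 6 ligand genes had 0 called probe sets. Other T cell targets of Notch accounted for 15 of the 17 higher probe sets. Il2ra, the interleukin-2 receptor alpha chain, was higher by 7.17 and 4.75 on its 2 probe sets, and Il7r, the interleukin-7 receptor, by 4.15 on 1448575_at. The other Il7r probe set, 1448576_at, had 7.35 to 11.25 in lymphomas, against 5.64 to 5.84 in DP thymocytes. Bcl2, which blocks cell death, was higher on 5 probe sets, by up to 3.92. Bcat1, an enzyme of branched-chain amino acid metabolism, was higher by 3.01 on 1450871_a_at. On Bcat1 1455699_at the groups overlapped, with 6.28 to 7.41 in lymphomas, against 6.16 to 6.29 in DP thymocytes. Another 3 genes are named after their values were seen. Myc, a growth regulator and direct Notch target, had 10.54, 10.19, 10.03 and 10.56 in lymphomas, against 8, 8.33 and 7.89 in DP thymocytes, and was higher by 2.26. The T lineage factor Gata3, also a target, had 8.73, 9.12, 8.62 and 9.85 in lymphomas, against 11.23 to 11.58 in DP thymocytes, and was lower by -2.30. Ccnd3, a D-type cyclin, was lower on 3 probe sets.

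Among corepressors that hold RBPJ inactive or act with Hes proteins, 5 of 24 tested probe sets were lower and 0 higher. The background was 3.53% of probe sets lower and 2.69% higher. These 5 lay in 5 of the 11 tested genes. Called falls were in Hdac2 (-1.38), Tle4 (-1.34), Tle2 (-1.30), Tle3 (-1.15) and Kdm5a (-0.76), each on 1 probe set, and of 24 probe sets tested 19 did not pass, among them Spen 1420397_a_at (-1.84, limma adjusted p = 0.112). Of genes for turnover and inhibition of the receptor, Dtx3l, a relative of Dtx1, was higher on 2 probe sets (1.42 and 1.60). Dtx3 (-0.94) and Itch (-0.85), a ubiquitin ligase that acts on Notch, each had a lower probe set. The protease gene Adam17 was lower by 0.95, and Hes5 by 1.11 on 1456010_x_at. This Hes5 probe set exceeded the filter level only in DP thymocytes. It was thus tested through the group where it is high, and its call adds no support. The brighter Hes5 1423146_at had 7.3 to 7.58 in lymphomas, against 7.62 to 7.77 in DP thymocytes, and was not called.

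The same 162 probe sets gave 0 calls for ZNF112 against T lymphoma and 0 for the sorted against the unsorted lymphomas (limma), against backgrounds of 0.386% in each direction and 0.486% in either, with 23 at an unadjusted p under 0.05 in each. At these backgrounds a count of 0 says nothing about the list. The backgrounds are of adjusted calls, and no share at the unadjusted p was counted over all probe sets, so the 23 have none beside them. Between LSC and HSC 21 were higher (13 genes) and 9 lower (7 genes), against a background of 3.95% higher and 5.24% lower, so that the lower count is near the background. The higher genes included Il2ra (7.71 and 5.32), the T lineage factors Bcl11b (5.48 and 3.44) and Lef1 (3.81), and Cdkn1a, an inhibitor of cell cycle kinases (2.98 and 2.39). The summed DP thymocyte markers were higher in LSC too, as given above, and their part in these values was not tested. The lower ones included Mfng, Manic Fringe, with 6.34 and 7.07 in LSC, against 9.46 and 9.11 in HSC (-2.57), the acetyltransferase Kat2a (-2.33 and -2.03) and the presenilin Psen2 (-1.53). Dtx3l was higher here too (1.32 on 1435208_at).

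The genes most like 3 of the members were found by Pearson's r of log2 values over the 8 arrays of lymphomas, ZNF112 and DP thymocytes. For Notch1 1418634_at they were Rrp12 (0.995), Parp14 (0.992) and Rapgef2 (0.989). For Notch3 1421965_s_at they were Cish (0.996), Socs3 (0.992) and Sh3bp5 (0.992), of which the first pair encode feedback inhibitors of cytokine signalling. For Dtx1 1425822_a_at they were Ddc (0.995), Lpp (0.992) and Prelid2 (0.989). The 8 arrays fall into groups, so these values mainly rank genes by how alike the groups part, and they are a description only.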

How the data were processed

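RNA of 12 mouse samples was measured on Affymetrix Mouse430 2.0 arrays, 1 array a sample; per the labels' protocols, RNA was extracted with Trizol, amplified in 2 cycles and hybridised as biotinylated cRNA. Linear probe set intensities were deposited, made by the authors with RMA per the submitters' processing notes, version not given; log2 was taken again here. Array medians differ between the T cell and the stem cell sides, which look normalized apart, so groups were contrasted within a side. The difference of the contrasts crosses the sides, and sets log2 changes on unlike intensity scales against each other. The fit to 12 arrays also pools the spread over both sides.

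Of 45101 probe sets, 34945 carried 1 symbol in the platform annotation, 932 several and 9160 none, and 64 controls were left out (13 with a symbol). Of the named probe sets, 34741 matched RefSeq and 0 symbols changed. Differences were tested with limma 3.58.1 under R 4.3.3 (lmFit with a mean for each group, eBayes, two-sided), checked on simulated data; the root mean square SD over probe sets was 0.59 in T lymphoma, 0.159 in DP thymocytes, 0.994 in LSC and 0.535 in HSC. Precision depends on how many arrays a group holds.

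The members, the pathway and marker lists and the tests were chosen with earlier results of these data known. Every member probe set is named; other pathway genes are named where called, at most the 4 largest of a list; and for 3 members the 3 most alike genes are named. Alternatives covered filters, normalization, a floor, moderation, 1 probe set per gene, subsets of arrays, a replicate block and leaving out each array.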

Additional observations from a re-analysis of the deposited data

Results flagged for a closer look

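A test of the difference between the stem cell and the T cell contrasts singled out 5 member probe sets. LSC over HSC minus T lymphoma over DP thymocytes was -1.57 (log2) for Notch1 1418634_at and -1.85 for Notch1 1418633_at. It was -3.84 for Dtx1 1425822_a_at, where LSC over HSC stood at 1.08 and T lymphoma over DP thymocytes at 4.92. For Igf1r 1446303_at it was -1.42, with LSC lower than HSC by -2.49 and lymphomas lower than DP thymocytes by -1.07. For Rbpj 1448957_at it was 1.90, with 1.43 in the stem cells and -0.47 in the T cells. No array stood apart within the 4 lymphomas by Dixon's test at its 95% limit for any member; groups of 2 and 3 arrays were not examined in that way.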

How the results depend on the processing

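With 1 probe set per gene, which left 10 members to test, the calls were 4 (against 7) for T lymphoma over DP thymocytes, 2 (against 4) for ZNF112 over T lymphoma, 1 (against 4) for LSC over HSC and 2 (against 5) for the difference of the contrasts. Leaving out 1 array at a time gave 5 to 7, 3 to 4, 1 to 6 and 2 to 8 calls in these, and 0 to 1 for the sorted lymphoma. With 1 probe set per gene, 6.53% of all tested were called for T lymphoma over DP thymocytes. This share was 10.3% for LSC over HSC and 8.87% for the difference. Leaving out 1 array called 589 to 2778 of all probe sets for T lymphoma over DP thymocytes. That number moved in the other contrasts too. A fit to the 4 stem cell arrays alone gave 0 calls for LSC over HSC, and 0 over all probe sets (limma, 2 residual degrees of freedom). In it 5 member probe sets had an unadjusted p under 0.05, with no share over all probe sets counted. The T lymphoma over DP calls were 9 in a fit to the 8 arrays of that side. That fit called 14.5% of all tested probe sets, against 6.22% in the main fit. Under joint quantile normalization 7 of 7 were kept, with 6.94% of all called. Against the sorted lymphoma alone, which is 1 array, some calls were lost and others gained.

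With the replicate number as a block the calls were 6 of 7 for T lymphoma over DP thymocytes (Notch3 1421964_at lost, adjusted p = 0.0589), 1 for LSC over HSC and 2 for the difference. Same-numbered lymphoma and thymocyte arrays did not deviate together (r of 0.035, -0.083 and -0.008), so the numbers give no sign of pairing there. For LSC and HSC the check cannot decide. With 2 arrays in a group the deviations mirror each other, so that r is 0.078 for same-numbered pairs and -0.078 for the others. Over 1304 recomputed member differences, 50 lost a call, 25 gained one and 0 called ones changed sign. Only differences called in the main fit could lose a call, and most were not called there, so the 50 are not a share of 1304. Over all probe sets, calls ran from 501 to 3350 for T lymphoma over DP thymocytes, 75 to 801 for ZNF112, 0 to 738 for the sorted lymphoma, 0 to 4862 for LSC over HSC and 616 to 4174 for the difference; causes were not tested. Probe sets near the filter level have compressed differences, and groups of 1 or 2 arrays borrow their spread from the others.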

Other observations

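Notch2 1455556_at, read with the other pathway genes, stood at 13.59 in LSC 1 and 9.65 in LSC 2, against 10.84 and 11.15 in HSC, so that the LSC arrays lay on either side of HSC. Dtx4, a further Deltex relative, was at 11.55 in LSC 1 and 7.2 in LSC 2 on 1436545_at, against 7.02 and 7.5 in HSC. On the other Dtx4 probe set, 1455711_at, both LSC arrays lay above HSC (10.47 and 8.14, against 7.08 and 7.37). Rbpj 1454896_at was at 13.01 in LSC 1 and 10.23 in LSC 2, of which the second lay within the HSC range. These genes were chosen after their values were seen, and their array-to-array difference was not tested.

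Bcl11b, a T lineage factor, was at 10.86 and 11.03 in LSC on 1435227_at, against 6.42 and 4.49 in HSC, and here both LSC arrays were high. In ZNF112 Il7r 1448575_at was at 7.06, against 10.15 to 13.16 in lymphomas and 7.61 to 7.76 in DP thymocytes, and Gata3 at 11.46, against 8.62 to 9.85 in lymphomas and 11.23 to 11.58 in DP thymocytes. For both genes the line lay near the DP thymocytes and outside the range of the lymphomas, and neither difference from the lymphomas passed (-4.79, limma adjusted p = 0.0915, and 2.38, limma adjusted p = 0.0721). These genes, too, were chosen after their values were seen.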
